A study of Homo sapiens with 2 samples.

Results

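Sterol and fatty acid synthesis genes are described here as a set of 28 genes out of 36601 in the count tables. They were matched by exact gene symbol and all 28 were present and counted. The set holds 19 sterol enzymes, 4 genes of sterol sensing and transport, and 5 fatty acid enzymes. The sterol enzymes divide into 8 that lead through mevalonate to the isoprenoid diphosphates, 3 that make squalene and lanosterol, and 8 that turn lanosterol into cholesterol. Among the first 8, GGPS1 is a sterol enzyme by this grouping only, as it makes the geranylgeranyl diphosphate that anchors small GTPases. The genes were proposed after values of these same tables had been seen, so their levels and ratios are given as description without any test.

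Cells build cholesterol from acetyl-CoA through mevalonate, farnesyl diphosphate, squalene and lanosterol, and build fatty acids from the same acetyl-CoA through malonyl-CoA. Both branches are driven by SREBP transcription factors, which stay in the endoplasmic reticulum with SCAP and INSIG proteins while sterols are plentiful and are released to the nucleus when sterols run low. SREBF2 encodes the factor best known for sterol genes, and SREBF1 the one best known for fatty acid genes. Sterols are also needed for signalling at the cilium and for myelin, the membrane that Schwann cells wrap around axons.

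The cells came from human inner ear organoids, aggregates grown from WA25 embryonic stem cells carrying a SOX2 reporter (the line SOX2nT, with the red fluorescent protein tdTomato). One group was grown in GelNB-CH, a chemically defined hydrogel made from gelatin, and the other in Matrigel, a basement membrane extract. Organoids of both groups were dissociated on day 40 with Accutase for 90 min, and reporter-positive cells were sorted before droplet capture. Each group is 1 library from 1 sort, so no value has a replicate and every interval below covers counting error alone. The growth text is the same for both libraries and describes only the hydrogel: embedding on day 11 with 0.1% PEG4SH by weight, exposure to CHIR99021, and 0.02% oDex on day 15. The labels do not say how many organoids were pooled.

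After filtering, 18087 cells of the GelNB-CH library and 9813 of the Matrigel library were kept, with medians of 8534 and 14007 UMIs (unique transcript counts) per cell. The libraries shared 78 cell barcodes, 63 of them among kept cells. Clustering gave 23 groups, 18 of which were named from marker lists: otic-like epithelium (6575 and 2621 cells in GelNB-CH and Matrigel), mesenchyme-like (3439 and 1900), cartilage-like (2153 and 726), glia-like of the Schwann or satellite kind (1264 and 2497), neuron-like (1196 and 834) and 1 small melanocyte-like cluster. No cluster was named hair cell. None of the 28 genes was used for clustering. Summed otic markers stood at 6733 and 5644 UMIs per 1000000 (CPM) in otic-like cells and at 742 and 766 in mesenchyme-like cells, while summed mesenchyme markers stood at 138 and 130 in otic-like cells and at 6949 and 8148 in mesenchyme-like cells. SOX2, the sorted gene, was at 12.2 and 20.6 CPM in otic-like cells but at 5.32 and 6.61 in mesenchyme-like and 3.86 and 2.31 in cartilage-like cells, classes that do not usually express it.

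Sequence just upstream of the genes is described first, and its part in their levels was not tested. RefSeq's promoter table (GRCh38.p14, 250 bases before to 50 after each start) held 34 windows for 24 of the 28 genes. CCAAT, the motif of the factor NF-Y that is known to act beside SREBP, was present on either strand in 20 of these 24 genes, against 39.7% of 27305 gene symbols in the table. By window the shares were 67.6% of 34 and 34.6% of 35116. It was found in 14 of 16 sterol enzymes, 3 of 4 genes of sensing and transport, and 3 of 4 fatty acid enzymes. The strict sterol response element TCACNCCAC was found in 1 of the 24 genes, SREBF2, and in none of the 16 sterol enzymes, against 1.39% of all symbols. CACGTG was found in 3 of the 24, against 8.77% of all symbols. No motif lies inside another, and a match describes letters only. The sterol enzymes with a window but no CCAAT were CYP51A1, whose level followed the other sterol enzymes across clusters, and PMVK, whose level did not. The others all had it, both those that followed closely and EBP, TM7SF2 and GGPS1, which followed little or not at all. These last had 3, 1 and 1 matches. The following 5 stretches end before the annotated transcript start in both RefSeq and GENCODE, are written 5′ to 3′ on the gene's own strand, and carry each whole CCAAT (or its reverse complement ATTGG) in capitals. HMGCS1, FDPS, MSMO1 and INSIG1 are shown because they span the pathway and moved with the other sterol genes, and TM7SF2 because it did not.
HMGCS1 (minus strand, chr5:43313513-43313662): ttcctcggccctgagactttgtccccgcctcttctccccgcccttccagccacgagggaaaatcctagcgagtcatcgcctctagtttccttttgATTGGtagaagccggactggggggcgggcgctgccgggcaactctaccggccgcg
FDPS (plus strand, chr1:155308616-155308747): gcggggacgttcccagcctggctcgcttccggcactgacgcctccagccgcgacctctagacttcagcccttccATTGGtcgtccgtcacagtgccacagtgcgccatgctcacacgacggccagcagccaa
MSMO1 (plus strand, chr4:165327419-165327622): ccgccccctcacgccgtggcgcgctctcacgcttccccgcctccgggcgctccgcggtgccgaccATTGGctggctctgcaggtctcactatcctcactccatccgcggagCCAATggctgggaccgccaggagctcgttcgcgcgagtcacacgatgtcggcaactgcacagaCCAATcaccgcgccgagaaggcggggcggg
INSIG1 (plus strand, chr7:155297628-155297775): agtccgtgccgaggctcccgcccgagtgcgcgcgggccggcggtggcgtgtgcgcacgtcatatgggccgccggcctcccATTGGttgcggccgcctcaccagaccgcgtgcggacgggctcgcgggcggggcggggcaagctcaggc
TM7SF2 (plus strand, chr11:65111622-65111844): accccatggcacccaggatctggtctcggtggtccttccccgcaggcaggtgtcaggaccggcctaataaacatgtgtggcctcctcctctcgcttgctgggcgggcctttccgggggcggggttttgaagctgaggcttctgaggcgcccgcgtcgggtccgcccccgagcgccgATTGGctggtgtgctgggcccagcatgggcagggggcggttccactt

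Summed over each cell class, the sterol enzymes stood far lower in glia-like cells than in the other classes compared. The fatty acid enzymes differed far less. The 19 sterol enzymes together made up 1738 CPM of otic-like cells in GelNB-CH and 1498 in Matrigel. In mesenchyme-like cells the sums were 1579 and 2197, in cartilage-like cells 1914 and 2193, and in neuron-like cells 1887 and 1444. In glia-like cells they were 520 and 518, the lowest of the 5 classes in both libraries. Single clusters came closer to each other. The otic-like cluster 10, which met 11 of 18 otic markers but also 6 of 12 cartilage markers, was at 797 CPM in GelNB-CH and 650 in Matrigel. The glia-like cluster 20 was at 673 and 620. The 5 fatty acid enzymes together made up 249 and 256 CPM in otic-like, 248 and 293 in mesenchyme-like, 245 and 280 in cartilage-like, 290 and 294 in neuron-like, and 177 and 220 in glia-like cells. For every UMI of a fatty acid enzyme there were 6.98 and 5.85 UMIs of sterol enzymes in otic-like cells, 6.37 and 7.50 in mesenchyme-like cells, and 2.95 and 2.36 in glia-like cells.

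**Figure D1:**
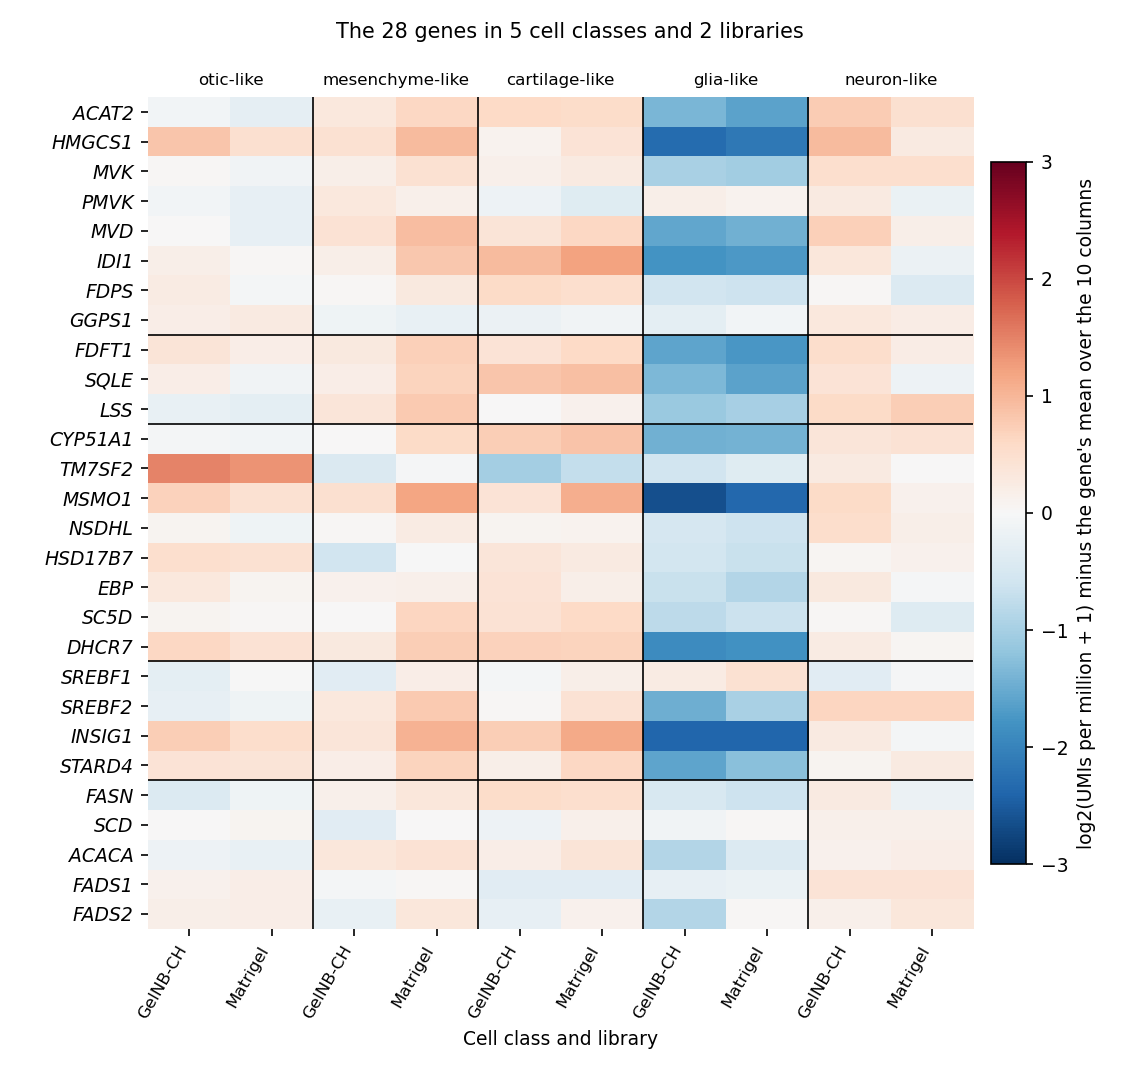
Each cell of the map is the log2(CPM + 1) of 1 gene in 1 class and library minus that gene's mean over the 10 columns, with genes in rows ordered by role. The glia-like columns are blue for most sterol genes in both libraries, TM7SF2 is highest in the otic-like columns, and the fatty acid rows at the bottom stay closer to 0 than most sterol rows.

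In each library 22 of the 28 genes, including 16 of 19 sterol enzymes and 3 of 5 fatty acid enzymes, had their lowest level in glia-like cells. Over all genes that reached 10 CPM in a class, the share lowest in glia-like cells was 17.9% in GelNB-CH and 19.3% in Matrigel. MSMO1, the C4-methyl sterol oxidase, was at 267 CPM in otic-like, 232 in mesenchyme-like and 25.7 in glia-like cells of GelNB-CH, and at 227, 376 and 31.5 in Matrigel. HMGCS1, which makes HMG-CoA from acetoacetyl-CoA, was at 32.0 and 36.2 CPM in glia-like cells, against 291 and 225 in otic-like cells. INSIG1, an anchor of SREBP in the endoplasmic reticulum and itself an SREBP target, was at 7.47 and 7.54 CPM in glia-like cells against 72.5 and 62.6 in otic-like cells. By the rule used throughout, a ratio of at least 1.5 with the larger level at 10 CPM or more, 17 of 19 sterol enzymes were higher in otic-like than in glia-like cells in GelNB-CH and 15 in Matrigel. Over all genes compared, the same call was made for 24.0% and 23.8%. For mesenchyme-like over glia-like cells the counts were 15 and 16 of 19, with 16.1% and 16.7% over all genes.

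SCD, the desaturase that makes oleic acid, differed little between classes, at 59.0 and 61.3 CPM in otic-like, 45.8 and 58.4 in mesenchyme-like and 53.7 and 59.2 in glia-like cells. SREBF1 was the only gene of the set with its highest level in glia-like cells in both libraries, 12.8 and 14.97 CPM, against 8.54 and 10.6 in otic-like cells. Among genes of sterol efflux, uptake and storage, ABCA1, the exporter that loads cholesterol onto apolipoproteins, was named after its values were seen. It stood at 172 and 125 CPM in glia-like cells, 30.9 and 30.1 in otic-like cells and 26.8 and 13.1 in mesenchyme-like cells. Of these classes, ABCA1 was thus highest in the one where the sterol enzymes were lowest. The whole list of 12 efflux and storage genes summed to 879 CPM in glia-like, 870 in otic-like and 546 in mesenchyme-like cells of GelNB-CH. Of the 12, 5 were higher and 7 lower in otic-like than in glia-like cells there, where 57.5% of all genes compared were higher in otic-like cells. MYLIP, the ubiquitin ligase that degrades lipoprotein receptors and was also named after its values were seen, was at 74.9 CPM in glia-like cells of GelNB-CH and at 33.1 in those of Matrigel, and between 31.4 and 37.5 in otic-like and mesenchyme-like cells of both libraries. The glia-like cells had medians of 7114 and 13709 UMIs per cell, against 9595 and 15453 in otic-like and 7564 and 12580.5 in mesenchyme-like cells. When each cell was thinned to 5000 UMIs, leaving out shallower cells (192 and 115 glia-like, 580 and 160 otic-like, 396 and 25 mesenchyme-like), the median count of sterol enzyme UMIs per cell was 2 and 2 in glia-like, 6 and 5 in otic-like, and 5 and 9 in mesenchyme-like cells. Without thinning the medians were 3 and 6, 11 and 14, and 8 and 24.

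Between the hydrogel and Matrigel, the direction of the sterol enzymes differed by cell class. In otic-like cells 18 of 19 were higher in GelNB-CH, by little: the median log2 ratio was 0.19, the summed ratio 1.16 (95% interval 1.15 to 1.17), and 14 intervals lay above 1. Over all genes compared, 44.5% were higher in GelNB-CH and 29.4% had an interval above 1. In mesenchyme-like cells 17 of 19 were lower in GelNB-CH, with a median log2 ratio of -0.41 and 16 intervals below 1. Over all genes compared, 56.1% were lower and 33.6% had an interval below 1. The summed level there was 1.39-fold higher in Matrigel (1.37 to 1.41). Over all genes compared the median log2 ratio was -0.03 in both classes. The fatty acid enzymes had median log2 ratios of -0.05 and -0.19. For 12 of the 19 sterol enzymes the interval was above 1 in otic-like cells and below 1 in mesenchyme-like cells, against 4.35% of the genes compared in both classes. The same held for 1 of 5 fatty acid enzymes, ACACA. Both comparisons rest on the same 2 libraries, and the difference between the classes was not tested.

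**Figure D2:**
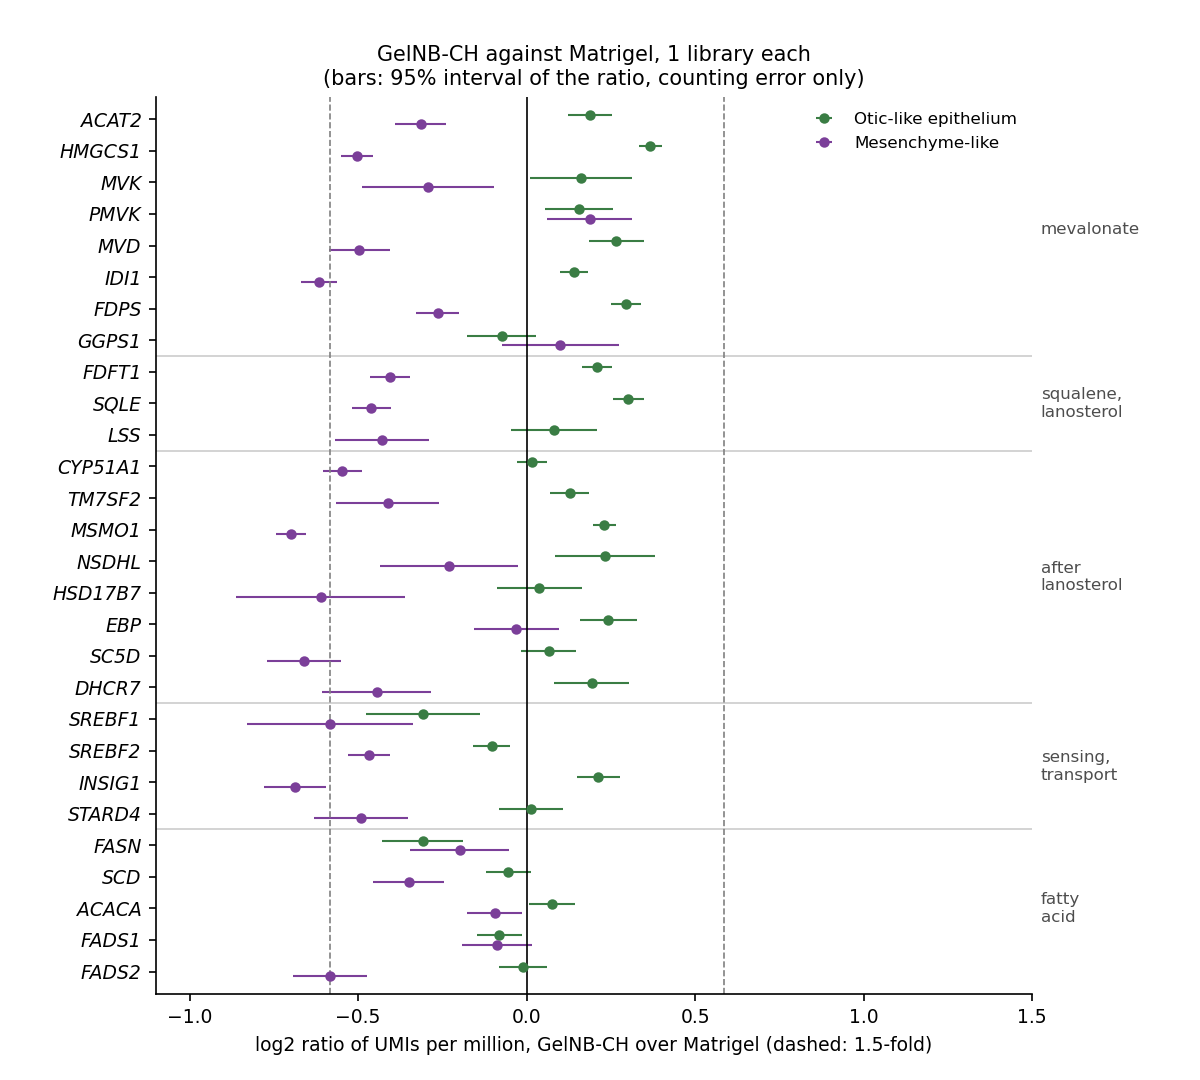
Points give the log2 ratio of GelNB-CH to Matrigel for each gene in otic-like (green) and mesenchyme-like (purple) cells, with the 95% interval for counting error as bars and dashed lines at 1.5-fold. No otic-like point reaches a dashed line, and 26 of 28 mesenchyme-like points lie left of 0.

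No gene of the set was 1.5-fold apart in otic-like cells, where 6.22% of all genes compared were. In mesenchyme-like cells 5 of 28 were, all higher in Matrigel. Of all genes, 6.53% were apart in either direction and 4.00% were higher in Matrigel. At 2-fold there were none, against 1.30% of all genes. The 5 genes were MSMO1, INSIG1, SC5D, IDI1 and HSD17B7. The last of them to pass were IDI1 and HSD17B7 at 1.53-fold, and the nearest to miss were SREBF1 and FADS2, both at 1.498-fold.

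Among the mevalonate steps, the summed level was 790 CPM in GelNB-CH and 662 in Matrigel in otic-like cells, and 745 and 995 in mesenchyme-like cells. HMGCS1 had the largest otic ratio of the group: 291 CPM in GelNB-CH and 225 in Matrigel, a ratio of 1.29 (1.26 to 1.32). In mesenchyme-like cells it was at 222 and 315 CPM, 1.42-fold higher in Matrigel (1.37 to 1.46). The 2 classes thus had opposite orders of the libraries for this gene. IDI1, which isomerizes isopentenyl diphosphate, was at 161 and 146 CPM in otic-like cells, a ratio of 1.10 (1.07 to 1.14). In mesenchyme-like cells it was at 162 and 248 CPM, 1.53-fold higher in Matrigel (1.48 to 1.59). Its 2 GelNB-CH values were close, and the Matrigel value of mesenchyme-like cells stood above the rest.

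GGPS1, the synthase of the geranylgeranyl diphosphate that anchors small GTPases to membranes, had the smallest otic ratio of the mevalonate group. It was at 25.5 and 26.9 CPM in otic-like cells (ratio 0.9497, 0.885 to 1.019) and at 20.4 and 19.01 in mesenchyme-like cells (1.07, 0.9499 to 1.21). Neither interval left 1 out. PMVK, the phosphomevalonate kinase, was the only sterol enzyme whose interval lay above 1 in both classes, at 29.5 and 26.5 CPM in otic-like and 39.6 and 34.8 in mesenchyme-like cells. The other mevalonate genes, ACAT2, MVK, MVD and FDPS, had otic ratios from 1.12 to 1.23 and mesenchyme ratios from 0.709 to 0.833. ACAT2 condenses acetyl-CoA, MVK phosphorylates mevalonate, MVD makes isopentenyl diphosphate, and FDPS joins isoprene units into farnesyl diphosphate.

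**Figure D3:**
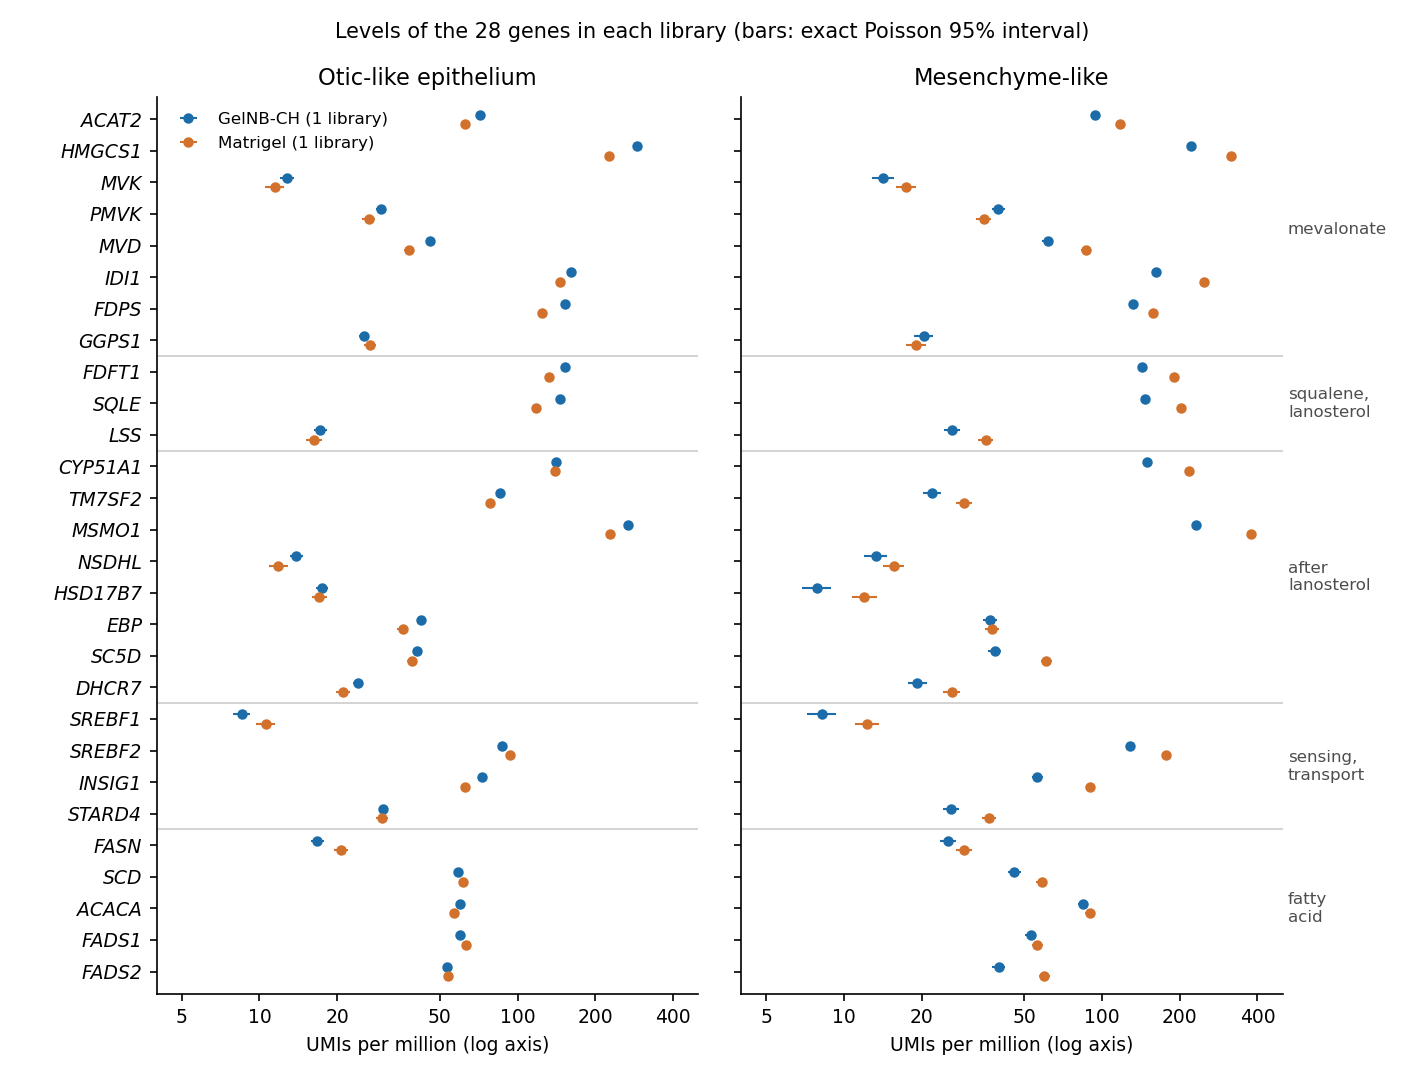
Points give the level of each gene in CPM on a log axis in otic-like (left) and mesenchyme-like (right) cells of each library, with exact Poisson 95% intervals as bars. The blue GelNB-CH points lie to the right of the orange Matrigel points for 21 of 28 genes on the left and for 2 of 28 on the right.

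All 3 enzymes of squalene and lanosterol synthesis had the same opposite directions. SQLE, the squalene epoxidase, had the largest otic ratio of the group, with 146 CPM in GelNB-CH and 118 in Matrigel (1.23, 1.19 to 1.27). It was at 147 and 202 CPM in mesenchyme-like cells, 1.38-fold higher in Matrigel (1.32 to 1.43). LSS, the lanosterol synthase, had the smallest otic ratio, at 17.2 and 16.3 CPM (1.06, 0.968 to 1.16), and was at 26.3 and 35.4 in mesenchyme-like cells, 1.35-fold higher in Matrigel (1.22 to 1.48). Its otic levels could not be told apart by counting error. FDFT1, the squalene synthase, was at 153 and 133 CPM in otic-like and 143 and 190 in mesenchyme-like cells.

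The 8 genes after lanosterol held 3 of the 5 genes that were 1.5-fold apart. MSMO1 was at 267 CPM in GelNB-CH and 227 in Matrigel in otic-like cells, a ratio of 1.17 (1.15 to 1.20). In mesenchyme-like cells it was at 232 and 376 CPM, 1.62-fold higher in Matrigel (1.57 to 1.67), the largest ratio of the 28 genes in that class. SC5D, the lathosterol desaturase, was at 40.9 and 39.0 CPM in otic-like cells (1.05, 0.988 to 1.11) and at 38.4 and 60.7 in mesenchyme-like cells, 1.58-fold higher in Matrigel (1.46 to 1.71). HSD17B7, a ketosteroid reductase of C4 demethylation, was at 17.5 and 17.1 CPM in otic-like cells (1.03, 0.940 to 1.12) and at 7.85 and 11.99 in mesenchyme-like cells, 1.53-fold higher in Matrigel (1.28 to 1.82). For SC5D and HSD17B7 the libraries could not be told apart by counting error in otic-like cells.

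EBP, the sterol isomerase, had the largest otic ratio after lanosterol, at 42.4 and 35.9 CPM (1.18, 1.12 to 1.25). It was at 36.8 and 37.6 CPM in mesenchyme-like cells (0.979, 0.898 to 1.07), which makes it the gene of this group without a difference there beyond counting error. CYP51A1, the lanosterol demethylase, had the smallest otic ratio, at 141 and 139 CPM (1.011, 0.981 to 1.04), and was at 149 and 217 CPM in mesenchyme-like cells, 1.46-fold higher in Matrigel (1.40 to 1.52). NSDHL, which also acts in C4 demethylation, and DHCR7, the reductase that yields cholesterol, had otic ratios of 1.17 and 1.14 and mesenchyme ratios of 0.853 and 0.734. TM7SF2, a sterol reductase, had ratios of 1.09 and 0.752.

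The 4 genes of sterol sensing and transport did not share 1 direction in otic-like cells but were all lower in GelNB-CH in mesenchyme-like cells, with all 4 intervals below 1. INSIG1 was at 72.5 CPM in GelNB-CH and 62.6 in Matrigel in otic-like cells (1.16, 1.11 to 1.21). In mesenchyme-like cells it was at 56.0 and 90.1 CPM, 1.61-fold higher in Matrigel (1.51 to 1.72). SREBF1 was at 8.54 and 10.6 CPM in otic-like cells, 1.24-fold higher in Matrigel (1.10 to 1.39), and at 8.23 and 12.3 in mesenchyme-like cells. SREBF2 was at 86.9 and 93.3 CPM in otic-like cells, 1.07-fold higher in Matrigel (1.03 to 1.12), and at 128 and 177 in mesenchyme-like cells, 1.38-fold higher in Matrigel (1.32 to 1.44). Both SREBP genes were thus higher in Matrigel in both classes, except that the otic log2 ratio of SREBF2 turned from -0.10 to 0.03 with TMM scaling. STARD4, a cytosolic sterol carrier, was at 30.2 and 29.9 CPM in otic-like cells and at 26.0 and 36.5 in mesenchyme-like cells.

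In otic-like cells 4 of the 5 fatty acid enzymes were lower in GelNB-CH, 2 of them with intervals below 1, and 55.5% of all genes compared were lower. With TMM scaling, which raises every otic log2 ratio, 4 of 5 were higher and their median turned to 0.08. FASN, the fatty acid synthase, had the smallest otic ratio of the 5, at 16.8 CPM in GelNB-CH and 20.8 in Matrigel, 1.24-fold higher in Matrigel (1.14 to 1.35). It was at 25.3 and 29.1 in mesenchyme-like cells, 1.15-fold higher in Matrigel (1.04 to 1.27). ACACA, the carboxylase that makes malonyl-CoA, had the largest otic ratio, at 59.9 and 56.9 CPM (1.05), and was at 84.0 and 89.7 in mesenchyme-like cells (0.937, 0.885 to 0.991). SCD, FADS1 and FADS2, the last pair desaturases of polyunsaturated fatty acids, had otic ratios of 0.963, 0.946 and 0.992. The intervals of SCD (0.919 to 1.009) and FADS2 (0.944 to 1.042) held 1, and that of FADS1 (0.903 to 0.990) did not. FADS2 was lower in GelNB-CH in mesenchyme-like cells, at 39.9 and 59.7 CPM, and also in glia-like cells, at 25.0 and 48.4 CPM (0.517, 0.451 to 0.591). It was the only gene of the set 1.5-fold apart in glia-like cells, where 7.32% of all genes were apart and 5.17% were higher in Matrigel. FADS1, which overlaps FADS2 on the opposite strand, was at 46.0 and 47.8 CPM in glia-like cells (0.963, 0.867 to 1.07).

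For summed levels, the mesenchyme difference held in each cluster of that class, and the otic difference did not. The 3 mesenchyme-like clusters had summed sterol enzyme levels of 1555, 2250 and 1301 CPM in GelNB-CH and 1942, 2730 and 2202 in Matrigel, which were 1.25-, 1.21- and 1.69-fold higher in Matrigel. The last of these, cluster 3, is led by OGN, COL3A1 and COLEC12. In the same order, the median log2 ratios of the sterol enzymes were -0.31, -0.14 and -0.64. In these clusters 4, 7 and 2 of the 19 enzymes were higher in GelNB-CH. MSMO1 in cluster 3 was at 176 CPM in GelNB-CH and 369 in Matrigel, against 225 and 326 in cluster 0 and 373 and 514 in cluster 1. In all 3 clusters 12 of 19 sterol enzymes, all 4 genes of sensing and transport and 2 of 5 fatty acid enzymes were lower in GelNB-CH. The matching share over all genes was not counted. In the class as a whole 56.1% of all genes compared were lower. The 2 cartilage-like clusters had sterol ratios of GelNB-CH to Matrigel of 0.737 and 0.948, and 4 of the 5 unnamed clusters also had a ratio below 1, from 0.766 to 0.885.

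Among the 6 otic-like clusters, the summed sterol ratio of GelNB-CH to Matrigel was 0.932 in cluster 4, 1.04 in cluster 6, 1.14 in cluster 7, 1.24 in the cycling cluster 8, 0.956 in cluster 9 and 1.23 in cluster 10. Only FDFT1 and MVD were higher in GelNB-CH in all 6. The share of all genes higher in all 6 was not counted, and in the class as a whole it was 44.5%. HMGCS1 ranged from 0.959 in cluster 4 to 1.46 in cluster 10, whose levels of 69.8 and 47.8 CPM were the lowest of the otic clusters. The libraries filled the clusters unequally: cluster 6 held 2543 and 383 cells, and cluster 9 held 460 and 665. With the clusters weighted to the same make-up in both libraries, the median log2 ratio of the sterol enzymes in otic-like cells was 0.08, with 14 of 19 higher in GelNB-CH. The same weighting left the mesenchyme median at -0.44.

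**Figure D4:**
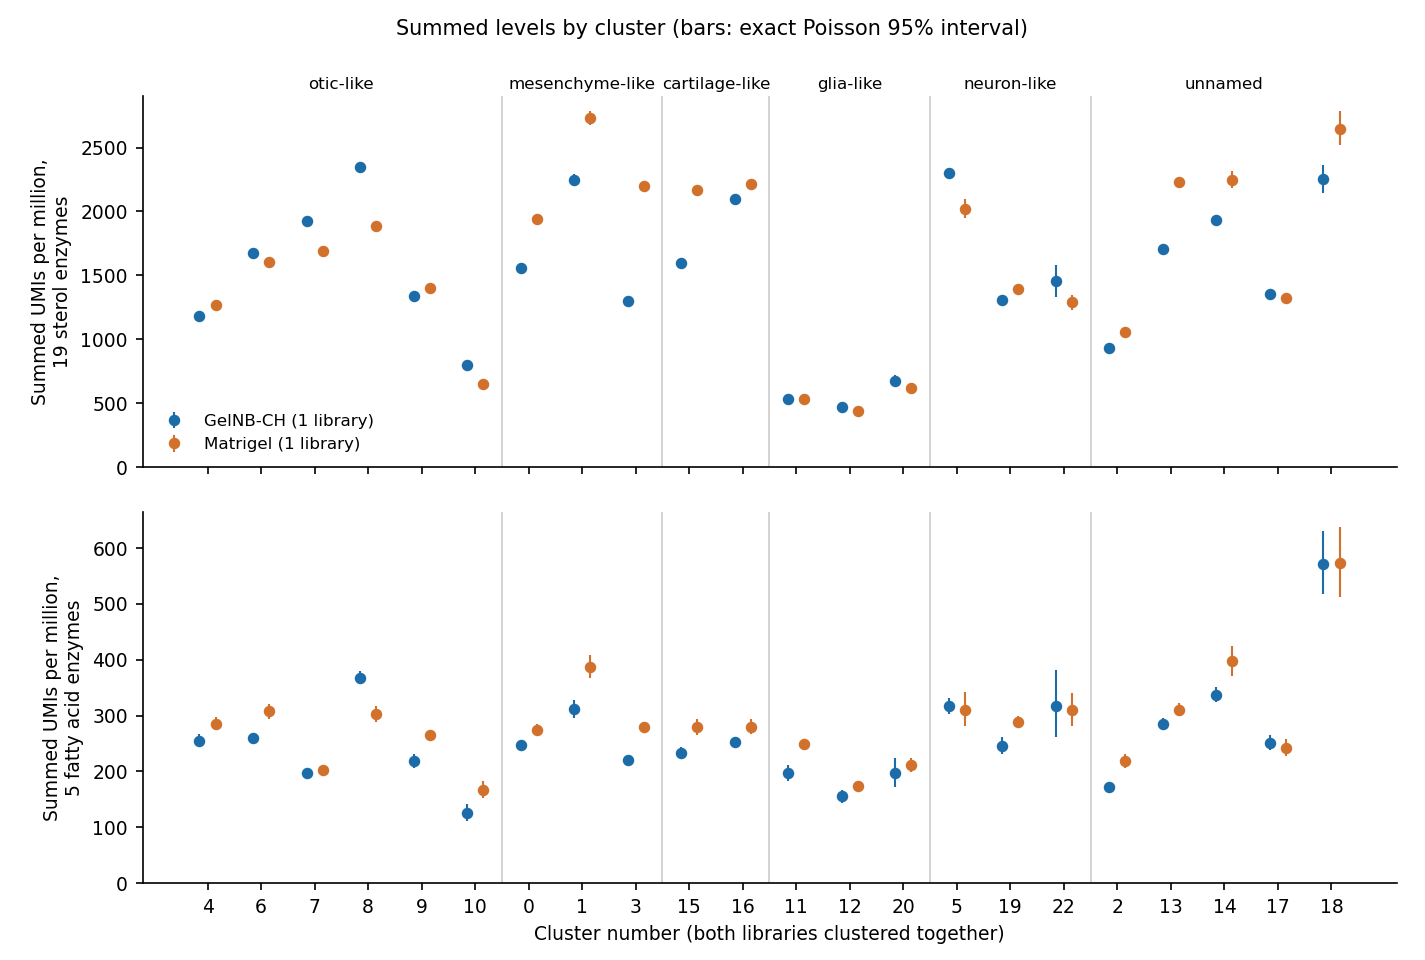
Points give the summed CPM of the 19 sterol enzymes (top) and the 5 fatty acid enzymes (bottom) in each cluster with at least 20 cells in both libraries, with exact Poisson 95% intervals as bars and each axis starting at 0. For sterol enzymes, the orange Matrigel points are higher in all 3 mesenchyme-like clusters and the otic-like clusters are mixed. The glia-like clusters stay below 700 CPM in both libraries, as does otic-like cluster 10 in Matrigel only.

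Other lists moved in the same classes, and their part in these results was not tested. In otic-like cells 17 of 17 hypoxia and glycolysis genes and 12 of 12 ATF4 targets were lower in GelNB-CH, with median log2 ratios of -0.92 and -1.07 and sums of 1363 against 2552 CPM and 370 against 729 CPM. In mesenchyme-like cells the medians were -0.61 and -0.23, with sums of 1136 against 1530 CPM for hypoxia and glycolysis, and of 301 against 291 CPM for ATF4 targets, whose sum was thus slightly higher in GelNB-CH. Heat shock genes were higher in GelNB-CH for 9 of 10 in otic-like and 9 of 10 in mesenchyme-like cells, with medians of 0.40 and 0.32. The cell cycle list had a median of 0.09 in otic-like and 0.42 in mesenchyme-like cells.

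In cartilage-like cells 13 of 19 sterol enzymes were lower in GelNB-CH, with a median log2 ratio of -0.11 and 9 intervals that held 1. Over all genes compared there, 55.6% were lower. MSMO1, at 222 and 351 CPM, was the only gene of the set 1.5-fold apart there, where 8.57% of all genes were apart and 5.98% were higher in Matrigel. In glia-like cells the sterol median was -0.04. In neuron-like cells 16 of 19 sterol enzymes were higher in GelNB-CH with a median of 0.33, against 44.9% of all genes compared. HMGCS1 was 1.5-fold apart there at 315 and 195 CPM, where 18.5% of all genes were apart and 8.31% were higher in GelNB-CH. The neuron-like clusters were filled differently, with 810 and 115 cells in cluster 5, 357 and 657 in cluster 19, and 29 and 62 in cluster 22. Within them the sterol ratios were 1.14, 0.938 and 1.13.

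The contrast of otic-like with mesenchyme-like cells differed between the libraries. It comes from the same class and library sums as the ratios of GelNB-CH to Matrigel above, so it is not a separate result. In GelNB-CH 11 of 19 sterol enzymes were higher in otic-like cells, where 64.6% of all genes compared were. Their median log2 ratio was 0.09, against 0.19 over all genes compared. In Matrigel 16 of 19 were higher in mesenchyme-like cells, where 34.7% of all genes compared were, with a median of -0.51 against 0.20 over all genes. By the 1.5-fold rule, 9 of 19 were higher in mesenchyme-like cells in Matrigel, where 13.1% of all genes were, and 1 of 19 in GelNB-CH, where 11.9% were. That 1 gene was LSS, at 17.2 CPM in otic-like and 26.3 in mesenchyme-like cells. In Matrigel, the sterol enzymes furthest toward mesenchyme-like cells were MVD and LSS, at 37.9 against 86.7 CPM and 16.3 against 35.4 CPM, which is 2.29-fold (2.15 to 2.43) and 2.17-fold (1.97 to 2.39) higher in mesenchyme-like cells. The median in GelNB-CH is near 0 and took the other sign in 5 alternative settings given at the end. The 5 fatty acid enzymes had medians of 0.17 in GelNB-CH and -0.15 in Matrigel.

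**Figure D5:**
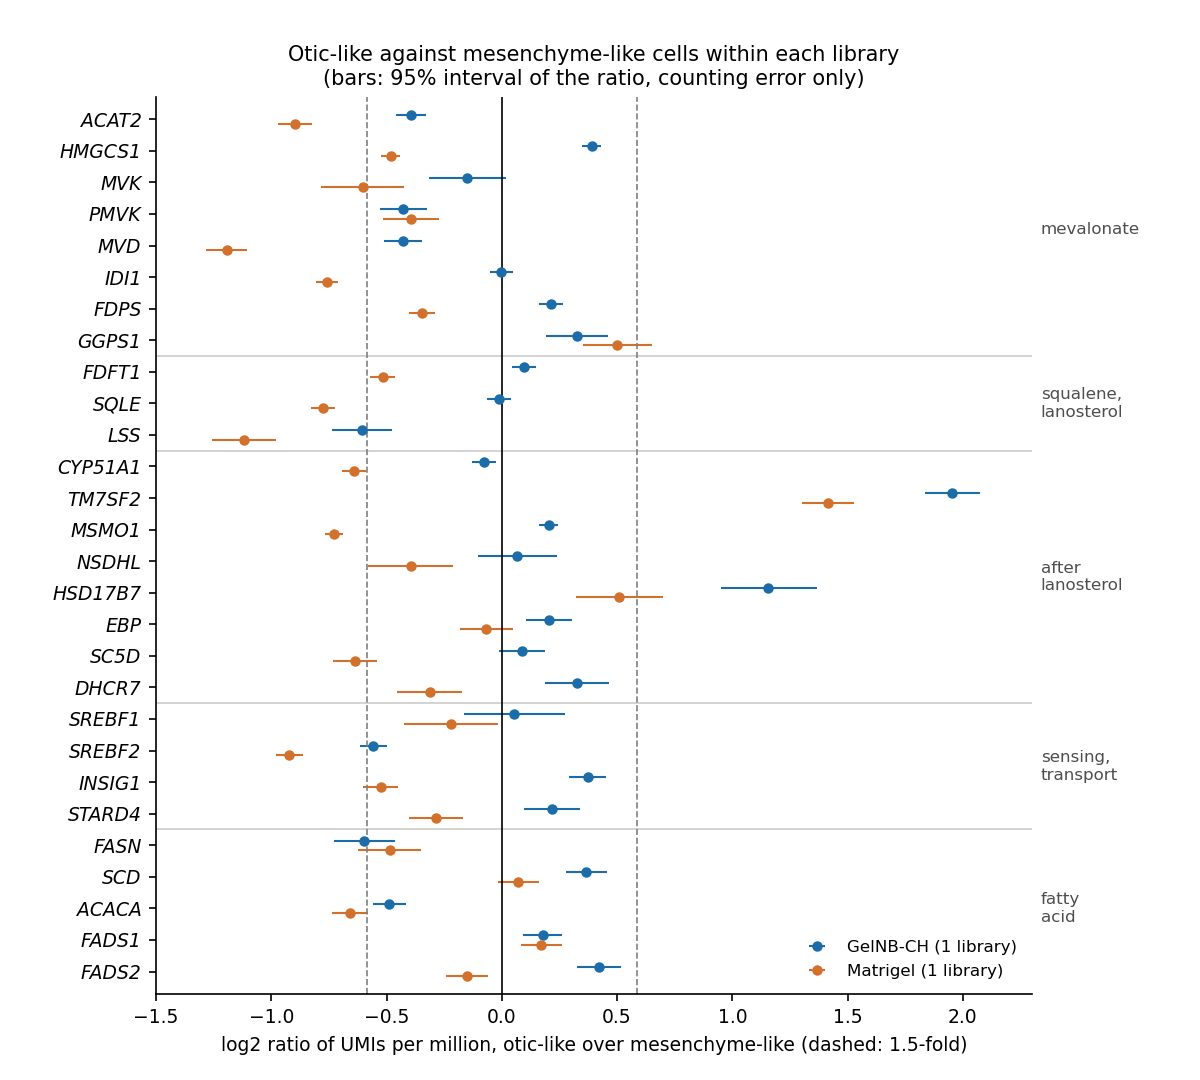
Points give the log2 ratio of otic-like to mesenchyme-like cells for each gene within each library, with 95% intervals for counting error and dashed lines at 1.5-fold. The Matrigel points lie left of 0 for 23 of 28 genes and the GelNB-CH points for 11, against 34.7% and 35.4% of all genes compared. TM7SF2 lies far to the right in both.

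TM7SF2, HSD17B7 and GGPS1 were the 3 sterol enzymes higher in otic-like cells in both libraries, and they are singled out after their values were seen. TM7SF2 was at 85.1 CPM in otic-like and 22.0 in mesenchyme-like cells of GelNB-CH, a ratio of 3.88 (3.57 to 4.21). In Matrigel it was at 77.9 and 29.2, a ratio of 2.67 (2.47 to 2.89). Its level in every otic-like cluster, from 40.3 to 101 CPM, was above its level in every mesenchyme-like cluster, from 13.9 to 37.7 CPM. HSD17B7 was 2.23-fold higher in otic-like cells in GelNB-CH (1.94 to 2.58) and 1.42-fold in Matrigel (1.25 to 1.62). For GGPS1 the otic-like level was above the mesenchyme-like one by 1.25-fold in GelNB-CH (1.14 to 1.38) and by 1.41-fold in Matrigel (1.27 to 1.57). TM7SF2 was the only sterol enzyme past 1.5-fold higher in otic-like cells in Matrigel, where 25.2% of all genes were, and it and HSD17B7 were the only ones in GelNB-CH, where 24.9% were. SREBF2 was higher in mesenchyme-like cells in both libraries, 1.47-fold in GelNB-CH (1.41 to 1.53) and 1.90-fold in Matrigel (1.82 to 1.97). ACACA and FASN were also higher in mesenchyme-like cells in both, by 1.40- and 1.51-fold in GelNB-CH and by 1.58- and 1.40-fold in Matrigel.

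How closely each gene followed the pathway was described over 44 points, the sums of each cluster in each library with at least 50 cells. The points share 2 libraries and their depth, so the correlations carry no p. Against the summed level of the other sterol enzymes, Pearson's r of log2(CPM + 1) was 0.96 for IDI1, 0.95 for MSMO1 and INSIG1, and 0.94 for HMGCS1. It was under 0.3 for 4 sterol enzymes: EBP at 0.20, TM7SF2 at -0.04, GGPS1 at -0.13 and PMVK at -0.26. SREBF2 stood at 0.82 and SREBF1 at 0.11. The fatty acid enzymes ranged from 0.38 for FADS1 to 0.75 for FASN. ABCA1 stood at -0.73. Of 7092 genes outside the set, the 3 with the highest r belonged to the wider pathway list and are not reported here, and the next was ELOVL6, a fatty acid elongase, at 0.83. MPP6, CPE, LRP1B, ST6GAL2, CACNB2 and PLCL2, none of them on a pathway list, completed the top 10, with r from 0.83 to 0.79. CRYAB, a small heat shock protein gene, had the lowest value, -0.83.

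Of 24 other genes of the pathway, such as elongases, acyl-CoA ligases and SREBP processing factors, 10 were higher and 14 lower in GelNB-CH in otic-like cells, and 4 higher and 20 lower in mesenchyme-like cells. Their median log2 ratios were -0.04 and -0.22, and none was 1.5-fold apart in either class. Among those with at least 10 CPM in either library, ELOVL1 and TECR, which act in fatty acid elongation, had the largest otic ratios, at 22.4 and 18.9 CPM and at 87.1 and 73.5 CPM. ME1, a malic enzyme that supplies NADPH, and CYB5R3, a reductase that feeds desaturases, had the smallest, at 16.4 and 22.2 CPM and at 58.1 and 70.9 CPM. ELOVL1 and TECR were higher in GelNB-CH in mesenchyme-like cells too, at 14.1 and 10.98 CPM and at 77.4 and 62.1 CPM. Of 12 genes of efflux and storage, 7 were higher and 5 lower in otic-like cells. Among those with at least 10 CPM in either library, ABCG1, a cholesterol exporter, at 10.6 and 6.57 CPM, and NPC2, a lysosomal cholesterol carrier, at 264 and 231, had the largest ratios. NPC1, its membrane partner, at 53.7 and 67.0 CPM, and NR1H2, an oxysterol receptor, at 27.4 and 33.5, had the smallest.

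The annotation overlaps other genes at 17 of the 28 loci, at 16 of them on the opposite strand. No source used here says whether the counting used strand. FADS2 and FADS1 overlap each other and ACAT2 overlaps TCP1, on opposite strands. TM7SF2 overlaps VPS51, GGPS1 overlaps TBCE and FADS2 overlaps FEN1 on the same strand. The levels of the genes with a neighbour on the same strand could include its reads. For a neighbour on the opposite strand this could be so only if the counting ignored strand.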

How the data were processed

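Droplet libraries (10x 3′ assay, version 3.1) from 2 sorted samples were analysed, 21743 and 10912 barcodes with 247006223 and 178672097 UMIs in GelNB-CH and Matrigel. The values are raw UMI counts per gene and cell barcode, deposited as filtered matrices made by the authors with Cell Ranger 7.1.0, per the file headers, while the labels' protocol names version 4.0.0. The submitters' processing notes name STAR and hg38. No source used here says whether intronic reads were counted.

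Cells with at least 1000 genes and at most 15% mitochondrial UMIs were kept after Scrublet called 14.9% and 6.42% of barcodes doublets. Both libraries were clustered together without integration (scanpy 1.11.5, Python 3.11.15, 2000 variable genes without pathway genes, 30 components, 15 neighbours, Leiden resolution 1.0). Clusters were named from 16 marker lists, and the rule that turns markers into names was set after the data were seen, as was the score alternative. UMIs were summed per class and library and given per 1000000 UMIs (CPM). Levels carry exact Poisson and ratios exact conditional binomial 95% intervals. These cover counting error only, since UMIs of 1 library are not replicates. Log2 ratios used CPM + 1. The interval code was tested on simulated data.

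With 1 library per group no test was possible. Members and lists were chosen with earlier results of these data known. Full values are given for genes at least 1.5-fold apart with a level of at least 10 CPM and for the largest and smallest otic ratio of each role group. For the other lists the 2 largest and 2 smallest otic ratios among genes with at least 10 CPM in either library are named. From the wider pathway list, 4 genes are not reported here. Gene overlaps come from GENCODE annotation and promoters from RefSeq. Alternatives changed the cell filter, doublets, resolution, naming, variable genes, depth range, weighting, scaling (edgeR 4.0.16 TMM in R 4.3.3), pseudocount, cluster make-up, cycling clusters and call limits.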

Additional observations from a re-analysis of the deposited data

Results flagged for a closer look

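The sterol enzymes were flagged because their ratio of GelNB-CH to Matrigel pointed in opposite directions in 2 cell classes. The median log2 ratio was 0.185 in otic-like cells and -0.415 in mesenchyme-like cells, with 18 of 19 enzymes higher in GelNB-CH in the former and 17 of 19 lower in the latter. The difference was not tested, since each group is 1 library.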

How the results depend on the processing

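The sterol enzymes stayed lower in GelNB-CH in mesenchyme-like cells under every alternative run (median log2 ratio -0.48 to -0.33) and higher in otic-like cells (0.08 to 0.31, from 14 to 19 of 19 enzymes). The otic median of 0.19 moved to 0.30 in cells of 8000 to 16000 UMIs, 0.31 with TMM and 0.0789 with the same cluster make-up. The sterol median of otic-like over mesenchyme-like cells in GelNB-CH, 0.09, reversed to -0.0112 with doublets kept, -0.00855 in cells of 8000 to 16000 UMIs, -0.00797 with means over cells, -0.0697 with TMM and -0.0281 without mitochondrial and ribosomal genes in the total. In Matrigel, -0.51 moved to -0.42 with the strict filter, -0.41 at resolution 2.0, -0.76 in cells of 8000 to 16000 UMIs, -0.72 with TMM, -0.61 without mitochondrial and ribosomal genes and -0.58 without cycling clusters. The fatty acid median in otic-like cells, -0.05, reversed to 0.0802 with TMM, and moved to -0.12 with means over cells, -0.18 with the same make-up and -0.17 without cycling clusters. For otic-like over mesenchyme-like cells it was 0.17 in GelNB-CH and moved to 0.28 with the strict filter, 0.26 with doublets kept, 0.0169 with TMM, 0.0592 without mitochondrial and ribosomal genes and 0.0459 without cycling clusters. In Matrigel it was -0.15 and moved to -0.0520 with doublets kept, -0.0263 at resolution 2.0, -0.35 with TMM and -0.25 without mitochondrial and ribosomal genes. Of the 28 genes, 5 were 1.5-fold apart in mesenchyme-like cells, but 3 at resolution 2.0, 2 with TMM, 0 at 2-fold, and 3 when unnamed clusters with mesenchyme markers were added, an alternative chosen after seeing the data. The log2 ratio of the TMM factors, GelNB-CH over Matrigel, was -0.14 in otic-like and -0.09 in mesenchyme-like cells, which raises every ratio by that amount. Across all alternatives 11 of 28 genes changed sign at least once in otic-like cells and 4 in mesenchyme-like cells, none 1.5-fold apart in the class where it did so. Where no construction shows it, the cause was not tested. No paired analysis was possible because each group is 1 library with no replicate numbers. Without replicates, differences between organoids, sorts and capture runs cannot be told apart from those between GelNB-CH and Matrigel.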
